A study of Mus musculus with 23 samples.

Results

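The genes described here are 36 genes of Kupffer cells, monocytes and macrophages, chosen by symbol from a table of 24475 mouse liver genes and kept where their level reached 0.5 RPKM in at least 5 libraries. RPKM is a number of reads scaled to the length of the gene and to the size of the library, so levels of genes of different length can be set side by side. Of the 36 genes, 33 passed, among 11939 genes that passed in all. Itgam passed 0.5 RPKM in 0 libraries, Tlr4 in 1 and Cx3cr1 in 4, so these 3 were not tested. Gpnmb with 6 libraries and Ccr2 with 7 lie just inside the rule. Trem2, Gpnmb and Ccr2 reached 0.5 RPKM in 0 of 11 chow libraries and in 8, 6 and 7 of 12 HFD libraries, so they were tested only through the HFD groups. Since a gene could pass through the group in which it was high, counts below are counts over the 33 tested genes and not over all 36.

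Kupffer cells are the resident macrophages of the liver and line its sinusoids, where they take up particles, old red cells and lipid from the portal blood. They carry surface receptors that few other macrophages carry, among them Clec4f, Timd4 and Vsig4. In livers that store fat, monocytes from the blood can enter, and some macrophages take on a lipid-associated state that is known for Trem2, Gpnmb, Cd9, Spp1 and Lgals3.

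The series holds 23 libraries of whole liver from C57BL/6J males, sorted by diet and antibody into 4 groups. Feeding with regular chow or high-fat food (HFD) lasted 4 months, and every group, controls included, was dosed with an antibody (10 mg/kg) over 3 weeks. REGN1193 blocks the glucagon receptor (GCGR), and REGN496 was taken as its isotype control because the design gives no code for the control. Libraries 1 to 5 are the chow controls, 6 to 11 had GCGR antibody on chow, 12 to 17 are the HFD controls, and 18 to 23 had GCGR antibody on HFD. The labels give no age, batch or pairing and do not say whether libraries came from different mice, so p-values measure only the spread between these samples.

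Some libraries stood apart from their groups and touch several results. Libraries 19 and 20 had the lowest mean correlation with the other libraries of their group over the tested genes (0.980 and 0.979), against up to 0.992 in the series. Over the 33 genes, library 2 was the lowest chow control library in 30, library 23 was the lowest of the HFD GCGR antibody group in 24, library 20 was the highest of that group in 21 and library 17 was the highest HFD control library in 23. Summed markers of other cells differed between groups as well, but the genes of a sum did not always move together. The sum of 10 stellate cell and matrix genes ran from 81.9 to 190 RPKM on HFD with GCGR antibody, against 88.8 to 97.04 on chow with GCGR antibody, 85.2 to 140 in HFD controls and 80.4 to 85.7 in chow controls. On HFD under GCGR antibody 6 of these 10 genes were higher, against 13.2% of all tested genes. In the HFD GCGR antibody group library 20 was the highest in Col1a1, Col1a2, Col3a1 and Pdgfrb, and library 19 in Dcn and Lum. The sum of 11 T and NK cell genes was 10.8 to 22.7 RPKM on HFD with GCGR antibody and 12.8 to 16.8 in HFD controls, against 6.02 to 8.86 on chow with GCGR antibody and 7.72 to 11.6 in chow controls. Zap70 alone averaged 10.7 RPKM in HFD controls and 4.63 on HFD with GCGR antibody, against 5.31 in chow controls and 2.37 on chow with GCGR antibody. Ccl5 averaged 5.69 RPKM on HFD with GCGR antibody and 1.20 to 1.64 in the other groups. Cd4 was lower on HFD under control antibody (-0.36 ± 0.13, adjusted p = 0.0440). The sum of 8 neutrophil genes stayed at 0.864 to 7.40 RPKM outside the HFD GCGR antibody group and reached 18.7 RPKM in 1 library of it, with Camp at 0 in every chow library. The sum of 6 platelet and red cell genes ran from 59.6 to 1523 RPKM in HFD controls (median 1325) and from 97.6 to 1103 on HFD with GCGR antibody (median 596), against 68.6 to 195 in chow controls (median 122) and 83.1 to 314 on chow with GCGR antibody (median 209). Itga2b and Alas2 of this list averaged less on HFD, at 0.439 and 54.3 RPKM in HFD controls against 0.762 and 63.8 in chow controls. With GCGR antibody they averaged 0.578 and 32.9 RPKM on HFD against 0.761 and 57.5 on chow. Of the 6 genes, limma called 0 higher and 1 lower on HFD under control antibody, against 11.6% and 18.3% of all tested genes. Under GCGR antibody it called 1 higher and 2 lower, against 13.2% and 16.6%. The sum of 4 adipose genes was 4.40 to 74.5 RPKM in HFD controls and 12.3 to 30.9 on HFD with GCGR antibody, against 0.702 to 2.87 in chow controls and 1.75 to 32.6 on chow with GCGR antibody. Cfd alone ran from 4.40 to 74.5 RPKM in HFD controls, and it was the only 1 of the 4 genes tested. Adipoq and Lep were at 0 in every HFD control library, and Lep also in every library on HFD with GCGR antibody. The part of these cells in the results, the white cell genes Ccr2 and Ptprc included, was not tested.

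Promoters are shown for 3 genes whose levels the results turn on, 2 of resident Kupffer cells (Clec4f and Timd4) and 1 of the lipid-associated state (Trem2). They are the 250 bases before the start that RefSeq lists on GRCm38.p6, read 5′ to 3′ on the strand of the gene. Clec4f lies at chr6:83644542-83656116 and its window at chr6:83656117-83656366 on the minus strand, Timd4 at chr11:46810786-46844333 with its window at chr11:46810549-46810798 on the plus strand, and Trem2 at chr17:48346401-48352276 with its window at chr17:48346151-48346400 on the plus strand. The end of the Timd4 window lies inside the annotated gene, because the listed start belongs to a shorter transcript. Capitals mark matches, on either strand, to the letters of 5 motifs of factors known in macrophages.
Clec4f: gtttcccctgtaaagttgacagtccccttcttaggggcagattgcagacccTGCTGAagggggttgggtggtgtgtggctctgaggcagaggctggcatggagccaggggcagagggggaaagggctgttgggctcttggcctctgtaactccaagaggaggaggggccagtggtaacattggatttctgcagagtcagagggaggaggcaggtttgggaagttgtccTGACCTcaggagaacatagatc
Timd4: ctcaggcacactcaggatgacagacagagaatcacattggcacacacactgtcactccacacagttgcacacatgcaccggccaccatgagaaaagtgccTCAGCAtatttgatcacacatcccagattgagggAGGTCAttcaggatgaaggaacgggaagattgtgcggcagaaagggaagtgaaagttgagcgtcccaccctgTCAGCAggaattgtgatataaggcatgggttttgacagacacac
Trem2: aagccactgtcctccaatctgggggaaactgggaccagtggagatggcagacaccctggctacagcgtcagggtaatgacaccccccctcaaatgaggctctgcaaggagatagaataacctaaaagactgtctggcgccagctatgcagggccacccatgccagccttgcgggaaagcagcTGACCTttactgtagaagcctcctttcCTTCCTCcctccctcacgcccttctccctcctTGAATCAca

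The motifs were GAGGAAG (a PU.1 core), AGGTCA (the core of nuclear receptor sites), TGCTGA (the core of MAF sites), TGANTCA (AP-1) and CACGTG (the E-box of MITF and TFE factors), and no 2 matches in these windows overlap. The Clec4f window holds TGACCT, the reverse complement of AGGTCA, beginning 22 bases before the start and TGCTGA at 199 bases. The Timd4 window holds AGGTCA at 116 bases and TCAGCA, the reverse complement of TGCTGA, at 150 and 44 bases. The Trem2 window holds CTTCCTC, the reverse complement of GAGGAAG, at 41 bases, an AP-1 match at 9 bases and TGACCT at 68 bases. Among 32851 RefSeq promoters, 10.6% hold GAGGAAG, 14% AGGTCA, 16.1% TGCTGA, 6.75% TGANTCA and 6.02% CACGTG. Among the 31 promoters matched for 28 of the 36 genes, 11 hold GAGGAAG, 6 AGGTCA, 9 TGCTGA, 2 TGANTCA and 0 CACGTG. These are counts of promoters and not of genes. Fcgr3 has overlapping windows among them, which both enter the counts of GAGGAAG and TGCTGA. A match says only that the letters are there.

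Across all 23 libraries the 33 tested genes differed widely in level. The highest means were those of Slc40a1, the iron exporter ferroportin (29.2 RPKM), Lyz2, a lysozyme (27.4 RPKM), Clec4f (25.1 RPKM) and the 3 chains of complement C1q, with C1qb at 24.9, C1qa at 24.7 and C1qc at 23.1 RPKM. The lowest were Fcgr1 at 0.806, Trem2 at 0.648, Gpnmb at 0.436 and Ccr2 at 0.399 RPKM. The resident Kupffer genes Clec4f and Cd5l lay above Trem2, Gpnmb and Ccr2 in every group mean. On HFD with GCGR antibody, however, the resident genes Timd4 (1.19 RPKM) and Cd163 (1.18 RPKM) averaged below Trem2 (1.30 RPKM).

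Most calls lay between the diets under GCGR antibody. There 8 of the 33 genes were lower on HFD and 5 were higher, where 16.6% of all tested genes were lower and 13.2% higher. The lower genes were Cd163, Clec4f, Timd4 and Vsig4 of resident Kupffer cells, Mrc1 and Slc40a1 of uptake and iron handling, Csf1r and Cd9. The higher genes were Mpeg1, Trem2, Lgals3, Gpnmb and Ccr2. Trem2, Gpnmb and Ccr2 had entered the test only through HFD libraries, so their calls do not support a direction, and of the other 30 genes 2 were higher. The groups did not overlap in 3 of the genes that were higher (Mpeg1, Lgals3, Gpnmb) and 3 of those that were lower (Cd163, Cd9, Csf1r), where 5.15% and 5.1% of all tested genes were higher or lower with no overlap. Gpnmb was tested only through HFD libraries, so its lack of overlap does not support a direction either. Among the other 30 genes, Mpeg1 and Lgals3 were the higher genes without overlap. Bulk RNA cannot tell fewer cells of a type from less RNA per cell. Without libraries 19 and 20 the counts fell to 4 lower genes (Cd163, Cd9, Mrc1 and Slc40a1) and 2 higher genes (Mpeg1 and Trem2). Without library 19 alone 5 genes were lower, and without library 23 alone 8 were higher. Leaving out library 6, 9, 10, 11, 21, 22 or 23 alone also ended calls of lower genes, among Csf1r, Mrc1, Slc40a1 and Vsig4.

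Under control antibody 2 of the 33 genes were higher on HFD, Trem2 and Mpeg1, and 1 was lower, Cd9, against 11.6% and 18.3% of all tested genes. Trem2 had again entered only through HFD libraries. The groups overlapped in all 33 genes, where 15.9% of all tested genes showed no overlap. These counts moved with single libraries. Without library 2 they became 0 higher and 7 lower genes (Lyz2, Csf1r, Mrc1, Il1b, Cd163, Cd9 and Msr1), and without libraries 19 and 20, which enter only through the shared estimate of the spread, 5 higher (Cd68, Lgals3, Trem2, Mpeg1 and Tyrobp) and 3 lower (Il1b, Cd163 and Cd9). Leaving out library 1, 3, 4, 12, 13, 14, 15, 17, 19, 22 or 23 alone also moved a count, within 0 to 5 higher and 0 to 3 lower genes.

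**Figure D1:**
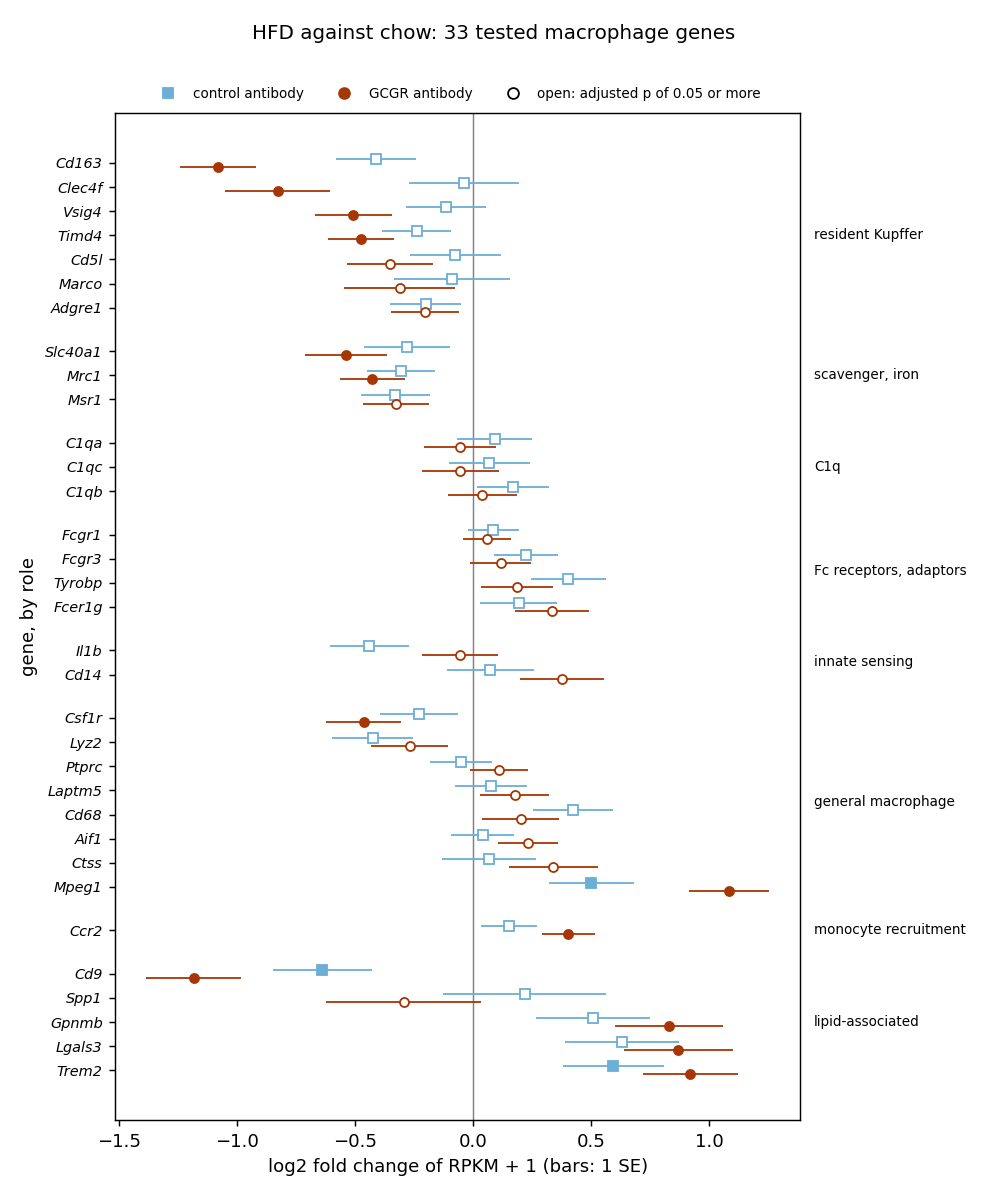
Log2 fold change of RPKM + 1, HFD against chow, for the 33 tested genes ordered by role, under control antibody (blue squares) and GCGR antibody (red circles), with bars of 1 SE and open symbols where the limma adjusted p was 0.05 or more. All 7 resident Kupffer genes lie left of 0 under both antibodies. Of the 5 lipid-associated genes, Trem2, Lgals3 and Gpnmb lie right of 0 and Cd9 lies left under both, and Spp1 lies left under GCGR antibody and right under control antibody. Trem2 and Gpnmb were tested only through HFD libraries.

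The GCGR antibody on HFD raised 4 of the 33 genes and lowered 0, against 5.33% and 2.12% of all tested genes. The 4 were Cd14 and Il1b of innate sensing, and Aif1 and Ptprc, which mark macrophages and white blood cells. At an unadjusted p under 0.05, limma counted 10 of the 33 genes, against 24% of all tested genes, and 26 had a fold change above 0, against 62.8%. The median was 0.21 against 0.05 for all tested genes. The adjusted p of all 4 lay between 0.0402 and 0.0494, the groups overlapped in each, and an exact rank-sum test called 0 of them. Leaving out library 4, 7, 8, 10, 12, 13, 14, 15, 16, 18, 19, 20, 21 or 22 alone gave 0 to 2 higher genes, and leaving out 17 or 23 gave 7. On chow the antibody raised 0 and lowered 0 of the 33 genes by limma, against 0.394% and 0.553% of all tested genes. There 4 genes had an unadjusted p under 0.05, against 10.8% of all tested genes, and the exact rank-sum test called 0. A fold change above 0 was seen in 30 genes, against 63% of all tested genes, with a median of 0.24 against 0.03. The antibody comparisons share no library with each other, but each diet comparison shares a group with each of them.

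The difference between the antibody effects on the diets, tested as an interaction, was called in 0 of the 33 genes by limma and in 0.201% of all tested genes. At an unadjusted p under 0.05, which 9.86% of all tested genes met, it counted 3 genes, Cd163 (-0.67 ± 0.23, SE), Clec4f (-0.79 ± 0.32) and Mpeg1 (0.58 ± 0.25), with adjusted p of 0.313, 0.426 and 0.443. The diet effects are therefore not shown to differ between the antibodies in any of these genes.

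The size of a fold change at low levels depends on the 1 RPKM added before the logarithm. With 0.1 RPKM added, the diet effect under GCGR antibody became 2.34 for Trem2, 2.57 for Gpnmb, 0.99 for Ccr2, -1.64 for Cd163 and -0.80 for Timd4, each still called, and that of Trem2 under control antibody became 1.57. In the same way the effect of the antibody on HFD became 1.03 for Il1b and 0.63 for Ptprc, both still called, and 0.98 for Cd14, which was no longer called (adjusted p = 0.0577). The values given below with 1 RPKM added are thus the smaller ones for these genes.

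**Figure D2:**
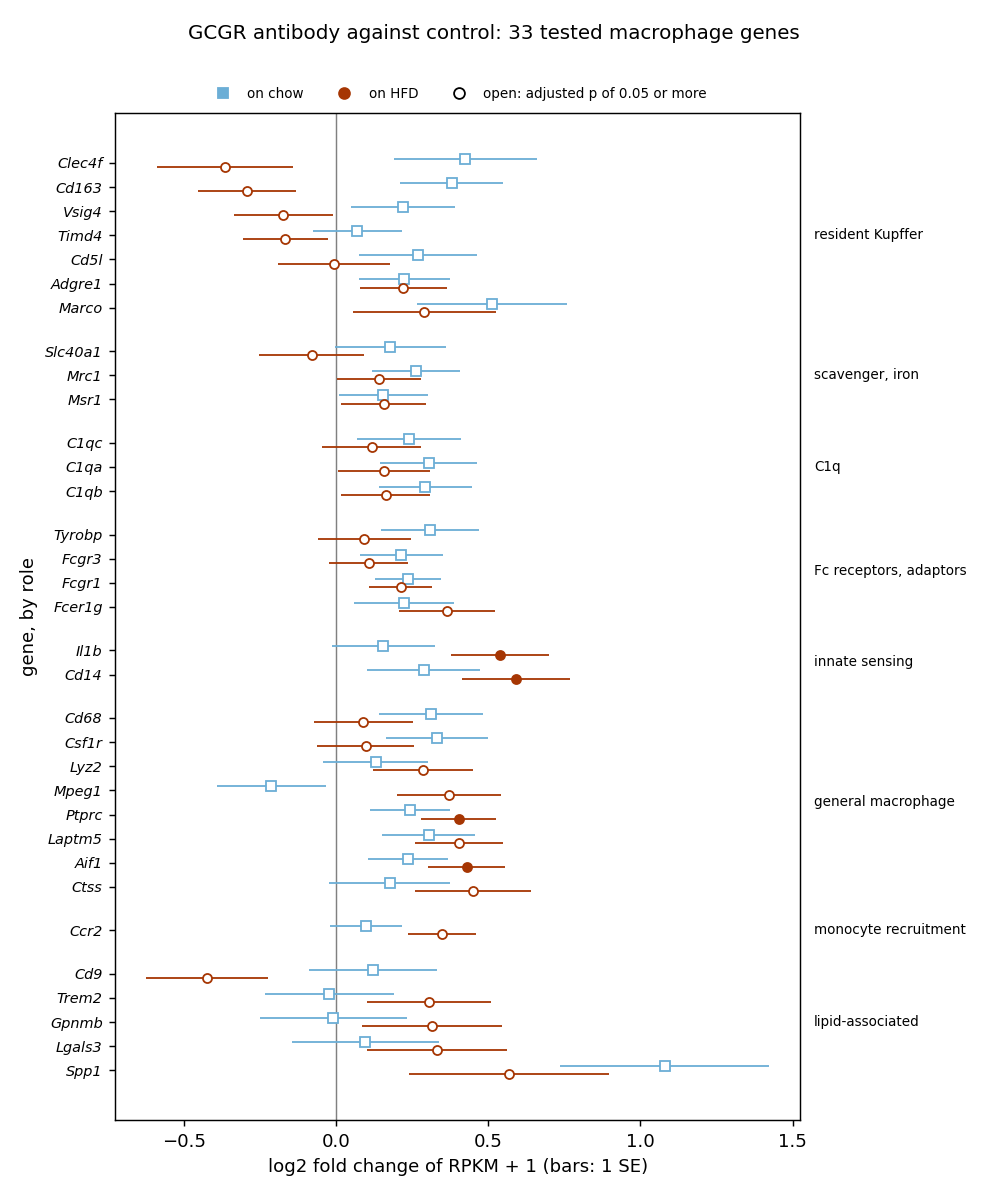
Log2 fold change of RPKM + 1, GCGR antibody against control, for the same 33 genes on chow (blue squares) and on HFD (red circles), with bars of 1 SE and open symbols where the limma adjusted p was 0.05 or more. On chow 30 genes lie right of 0 with open symbols throughout, and on HFD Cd14, Il1b, Aif1 and Ptprc are filled.

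Of the 7 resident Kupffer genes, 4 fell on HFD under GCGR antibody, and the median log2 fold change of the 7 was -0.47. Clec4f, a C-type lectin that marks liver Kupffer cells, read 25.3, 14.1, 24.1, 27.9 and 32.2 RPKM in chow control libraries 1 to 5. It ran from 27.6 through a median of 31.8 to 43.1 RPKM on chow with GCGR antibody, from 14.7 through 26.8 to 30.5 in HFD controls, and from 9.23 through 18.6 to 28.5 on HFD with GCGR antibody. Library 2 was the lowest of the chow controls, library 19 the lowest of all, and the GCGR antibody groups overlapped only through library 18 at 28.5 RPKM. The log2 fold change on HFD was -0.83 ± 0.22 (SE, adjusted p = 0.00796) under GCGR antibody and -0.04 ± 0.23 (adjusted p = 0.922) under control antibody. Without libraries 19 and 20 the former was -0.55 with an adjusted p of 0.0614.

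Cd163, the scavenger receptor for hemoglobin bound to haptoglobin, had the lowest adjusted p of the 33 genes. It read 1.55, 1.53, 3.40, 2.88 and 3.31 RPKM in chow controls 1 to 5. It ran from 3.08 through 3.44 to 3.94 RPKM on chow with GCGR antibody, from 1.25 through 1.61 to 1.98 in HFD controls and from 0.293 through 1.19 to 1.97 on HFD with GCGR antibody. Every chow GCGR antibody library stood above every HFD library of either antibody, while chow controls 1 and 2 lay among the HFD controls. On HFD the change was -1.08 ± 0.16 (adjusted p = 4.1e-05) under GCGR antibody, and -0.91 (adjusted p = 2.24e-04) without libraries 19 and 20. Under control antibody it was -0.41 ± 0.17 (adjusted p = 0.0711), and -0.52 (adjusted p = 0.0274) without library 2.

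Timd4, a phosphatidylserine receptor by which long-lived Kupffer cells bind dying cells, read 1.79, 1.18, 2.40, 1.81 and 2.13 RPKM in chow controls. It ran from 1.61 through 1.93 to 2.36 RPKM on chow with GCGR antibody, from 1.06 through 1.41 to 2.05 in HFD controls and from 0.403 through 1.28 to 1.86 on HFD with GCGR antibody. Library 19 was again the lowest, and the groups overlapped. HFD changed it by -0.47 ± 0.14 (adjusted p = 0.0133) under GCGR antibody and -0.24 ± 0.15 (adjusted p = 0.227) under control antibody. Without libraries 19 and 20 the former was -0.34 with an adjusted p of 0.0624.

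Vsig4, a complement receptor of Kupffer cells, read 8.83, 6.29, 9.59, 10.5 and 10.1 RPKM in chow controls. It ran from 9.08 through 10.2 to 12.9 RPKM on chow with GCGR antibody, from 6.52 through 8.39 to 10.2 in HFD controls and from 4.06 through 7.06 to 10.6 on HFD with GCGR antibody. The libraries of all 4 groups overlapped. The diet effect under GCGR antibody was -0.51 ± 0.16 (adjusted p = 0.0224), but -0.30 (adjusted p = 0.147) without libraries 19 and 20, and leaving out library 10 or 19 alone gave adjusted p of 0.0536 and 0.0636 at the lowest and highest.

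The other 3 resident genes did not pass the test in any comparison. Adgre1, which encodes the F4/80 antigen, read 3.78, 1.76, 3.29, 3.16 and 2.97 RPKM in chow controls. It ran from 3.00 through 3.59 to 4.17 RPKM on chow with GCGR antibody, from 1.79 through 2.40 to 3.49 in HFD controls and from 1.78 through 3.25 to 3.96 on HFD with GCGR antibody. Its diet effect was -0.20 ± 0.14 under GCGR antibody (adjusted p = 0.294) and -0.20 ± 0.15 under control antibody (adjusted p = 0.327). All 4 groups of libraries overlapped. Cd5l, a secreted protein of tissue macrophages that binds lipid, read 20.5, 12.4, 25.7, 24.8 and 28.2 RPKM in chow controls. It ran from 22.6 through 25.4 to 31.9 RPKM on chow with GCGR antibody, from 14.2 through 21.9 to 25.9 in HFD controls and from 13.8 through 20.5 to 29.1 on HFD with GCGR antibody, again with overlap. Its diet effect under GCGR antibody was -0.35 ± 0.18 (adjusted p = 0.153). Marco, a scavenger receptor for bacteria and particles, averaged 2.73 ± 1.29 RPKM in chow controls (SD, n = 5), 4.38 ± 2.02 on chow with GCGR antibody, 2.43 ± 0.707 in HFD controls and 3.28 ± 1.24 on HFD with GCGR antibody (n = 6 each).

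**Figure D3:**
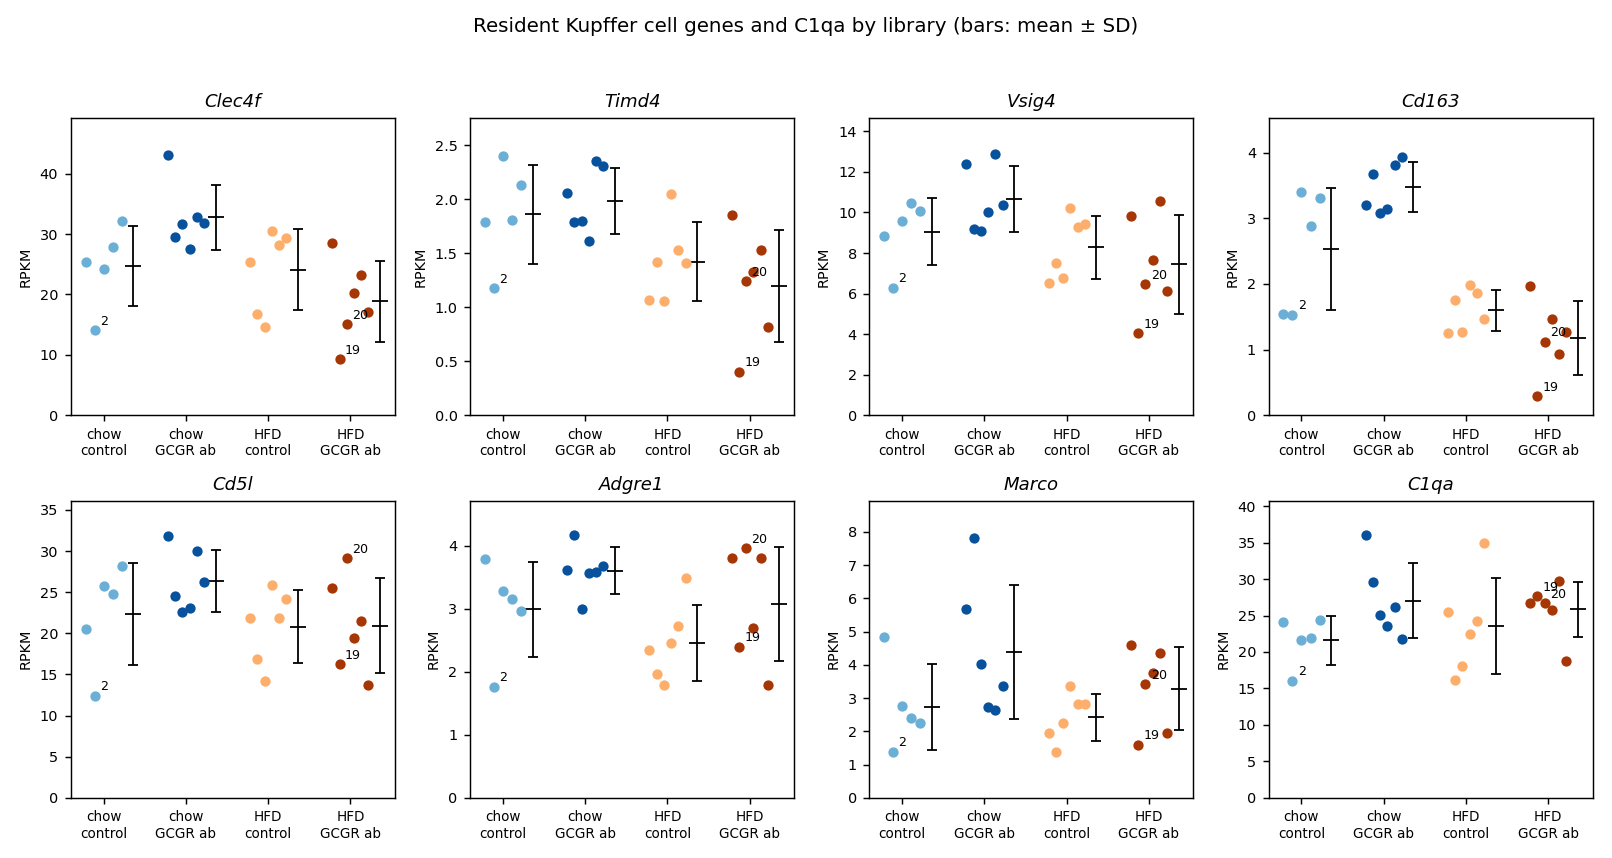
RPKM of the 7 resident Kupffer genes and C1qa in each library (dots) of the 4 groups, with the group mean and SD as bars and libraries 2, 19 and 20 numbered. Cd163 on chow with GCGR antibody (3.08 to 3.94 RPKM) clears both HFD groups, whereas C1qa overlaps in all groups.

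Of the 3 uptake and iron genes, 2 fell on HFD under GCGR antibody. Mrc1, the mannose receptor, which liver endothelium also carries, read 5.92, 3.47, 6.05, 5.05 and 5.66 RPKM in chow controls. It ran from 5.17 through 6.68 to 7.35 RPKM on chow with GCGR antibody, from 2.77 through 4.06 to 5.10 in HFD controls and from 3.14 through 4.55 to 6.74 on HFD with GCGR antibody. Library 20 was the highest of the last group and lay among the chow libraries. Between diets the change was -0.43 ± 0.14 (adjusted p = 0.0231) under GCGR antibody, and it lost the call without library 9, 19 or 23 (adjusted p from 0.0534 to 0.0653). Under control antibody it was -0.30 ± 0.14 (adjusted p = 0.115), and -0.42 (adjusted p = 0.0292) without library 2. Of 10 endothelial genes, 1 was higher and 2 lower on HFD under GCGR antibody, against 13.2% and 16.6% of all tested genes. Lyve1 was higher (0.78 ± 0.19, adjusted p = 0.00386), and Kdr (-0.48 ± 0.14, adjusted p = 0.0157) and Cdh5 (-0.40 ± 0.14, adjusted p = 0.0315) were lower. The part of endothelial cells in the change of Mrc1 was not tested.

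Slc40a1 read 26.2, 26.1, 32.5, 39.9 and 30.7 RPKM in chow controls. It ran from 22.3 through 37.0 to 52.0 RPKM on chow with GCGR antibody, from 18.9 through 26.6 to 31.6 in HFD controls and from 20.5 through 23.5 to 27.2 on HFD with GCGR antibody. The chow GCGR antibody libraries spread the most, and the groups overlapped. The diet effect under GCGR antibody was -0.54 ± 0.17 (adjusted p = 0.0232), with adjusted p from 0.0510 to 0.0695 without library 9, 11 or 22. Msr1, a receptor for modified lipoproteins, had diet effects of -0.33 ± 0.14 under GCGR antibody (adjusted p = 0.0815) and -0.33 ± 0.15 under control antibody (adjusted p = 0.0957). Without library 2 its adjusted p was 0.0482 and 0.0150, in the same order.

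The 3 chains of C1q, the recognition molecule of classical complement that Kupffer cells make in quantity, did not pass in any comparison, and limma gave 0 of them an unadjusted p under 0.05. C1qa read 24.1, 16.04, 21.7, 21.9 and 24.4 RPKM in chow controls. It ran from 21.8 through 25.6 to 36.1 RPKM on chow with GCGR antibody, from 16.2 through 23.4 to 34.9 in HFD controls and from 18.7 through 26.7 to 29.7 on HFD with GCGR antibody. Libraries of all groups overlapped. Its diet effect was -0.06 ± 0.15 (adjusted p = 0.809) under GCGR antibody and 0.09 ± 0.16 (adjusted p = 0.696) under control antibody. The other chains had diet effects of 0.04 ± 0.14 (C1qb) and -0.05 ± 0.16 (C1qc) under GCGR antibody.

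Ratios to C1qa in the same library show the resident genes beside a macrophage gene that did not pass the test. Clec4f per C1qa averaged 1.13 ± 0.177 in chow controls (SD, n = 5), 1.22 ± 0.153 on chow with GCGR antibody, 1.03 ± 0.203 in HFD controls and 0.740 ± 0.259 on HFD with GCGR antibody (n = 6 each). The lowest value was 0.334 in library 19. Cd163 per C1qa averaged 0.117, 0.133, 0.0725 and 0.0471 in the same order of groups. Trem2 per C1qa averaged 0.00805, 0.00574, 0.0349 and 0.0485. These ratios are given as a description.

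The 4 Fc receptor and adaptor genes did not pass in any comparison. They comprise Tyrobp and Fcer1g, which encode the signalling adaptors DAP12 and the Fc receptor gamma chain, and Fcgr3 and Fcgr1, which encode receptors for antibody. With a diet effect of 0.40 ± 0.16 (adjusted p = 0.0602), Tyrobp under control antibody came nearest. In the same comparison the log2 fold change was 0.22 ± 0.14 for Fcgr3, 0.19 ± 0.16 for Fcer1g and 0.09 ± 0.11 for Fcgr1. Fcgr3 resembles other Fc receptor genes in sequence, so its reads are less certain with reads of 33 cycles.

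Among the 8 general macrophage genes, Mpeg1 rose the most. Mpeg1, which encodes the pore-forming protein perforin-2, read 7.84, 6.72, 11.9, 11.9 and 14.7 RPKM in chow controls. It ran from 7.39 through 8.58 to 10.4 RPKM on chow with GCGR antibody, from 10.3 through 15.5 to 18.9 in HFD controls and from 14.4 through 21.2 to 26.2 on HFD with GCGR antibody. Every HFD GCGR antibody library stood above every chow GCGR antibody library. The diet effect was 1.08 ± 0.17 (adjusted p = 7.33e-05) under GCGR antibody, and 1.08 (adjusted p = 2.4e-04) without libraries 19 and 20. Under control antibody it was 0.50 ± 0.18 (adjusted p = 0.0381), a call lost without library 1, 2, 12, 15, 16 or 17 (adjusted p from 0.0609 to 0.125).

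Csf1r, the receptor for the growth factors CSF1 and IL-34 on which macrophages depend, read 8.52, 4.65, 10.5, 8.62 and 11.6 RPKM in chow controls. It ran from 9.65 through 10.8 to 12.5 RPKM on chow with GCGR antibody, from 5.62 through 6.80 to 11.1 in HFD controls and from 6.21 through 7.66 to 9.24 on HFD with GCGR antibody. The GCGR antibody groups did not overlap. On HFD the change was -0.46 ± 0.16 (adjusted p = 0.0317) under GCGR antibody, -0.48 (adjusted p = 0.0551) without libraries 19 and 20, and the call was also lost without library 6, 10, 11, 19, 21 or 23 (adjusted p from 0.0544 to 0.0695). Under control antibody it was -0.23 ± 0.17 (adjusted p = 0.317), but -0.41 (adjusted p = 0.0322) without library 2. Within the same role Csf1r and Mpeg1 thus moved in opposite directions under GCGR antibody.

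Aif1, which encodes the actin-binding protein IBA1, read 3.95, 2.69, 3.03, 2.70 and 3.58 RPKM in chow controls. It ran from 3.51 through 3.92 to 4.21 RPKM on chow with GCGR antibody, from 2.10 through 3.16 to 4.98 in HFD controls and from 3.76 through 4.80 to 6.70 on HFD with GCGR antibody. The HFD groups overlapped through high HFD controls such as library 17. The antibody effect on HFD was 0.43 ± 0.13 (adjusted p = 0.0402), but 0.39 (adjusted p = 0.0582) without libraries 19 and 20, and 8 single libraries (13, 14, 15, 16, 18, 19, 21 and 22) ended the call when left out, with adjusted p up to 0.0824.

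Ptprc, the CD45 antigen of all white blood cells, read 1.01, 0.949, 1.30, 1.14 and 1.40 RPKM in chow controls. It ran from 1.25 through 1.44 to 2.08 RPKM on chow with GCGR antibody, from 0.811 through 1.03 to 1.55 in HFD controls and from 0.940 through 1.69 to 3.12 on HFD with GCGR antibody. Library 20 alone held the highest value, and the HFD groups overlapped. The antibody effect on HFD was 0.40 ± 0.12 (adjusted p = 0.0494) and 0.25 (adjusted p = 0.151) without libraries 19 and 20. Of the 23 libraries, 20 ended the call when left out, all but 10, 17 and 23, with adjusted p up to 0.117. T and NK cells carry Ptprc too. Of their 6 tested genes 3 were higher (Ccl5, Cd3g and Il2rb) and 1 was lower in the same comparison, against 5.33% and 2.12% of all tested genes. The lower gene, Zap70, had the smallest adjusted p of them (-1.07 ± 0.14, adjusted p = 4.78e-05).

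The other 4 general macrophage genes passed in no comparison. The lysosomal genes Cd68, Ctss (cathepsin S) and Laptm5 had diet effects of 0.20 ± 0.16, 0.34 ± 0.19 and 0.18 ± 0.15 under GCGR antibody. Lyz2 had an effect of -0.27 ± 0.16 in that comparison and of -0.42 ± 0.17 under control antibody (adjusted p = 0.0648), or -0.55 (adjusted p = 0.0193) without library 2. Lyz2 has a near copy, Lyz1, so reads could be shared between them.

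Both tested innate sensing genes were higher with GCGR antibody on HFD. Cd14, the co-receptor that hands bacterial lipopolysaccharide to TLR4, read 1.20, 0.243, 0.818, 0.620 and 0.869 RPKM in chow controls. It ran from 0.835 through 1.12 to 1.35 RPKM on chow with GCGR antibody, from 0.532 through 0.692 to 1.53 in HFD controls and from 0.792 through 1.73 to 3.11 on HFD with GCGR antibody. Libraries 19 and 20 were the highest of all, at 2.90 and 3.11 RPKM. The antibody effect on HFD was 0.59 ± 0.18 (adjusted p = 0.0421) and 0.32 (adjusted p = 0.197) without them. Leaving out 1 library at a time ended the call in 12 of 23 cases (libraries 4, 8, 10, 12, 13, 14, 15, 16, 19, 20, 21 and 22), with adjusted p up to 0.102.

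Il1b, the cytokine interleukin-1 beta, read 0.692, 0.608, 1.83, 1.37 and 1.72 RPKM in chow controls. It ran from 0.994 through 1.46 to 2.07 RPKM on chow with GCGR antibody, from 0.362 through 0.590 to 0.982 in HFD controls and from 0.661 through 1.38 to 2.13 on HFD with GCGR antibody. The HFD controls were the lowest group, and the HFD groups overlapped. The antibody effect on HFD was 0.54 ± 0.16 (adjusted p = 0.0428), and 0.61 (adjusted p = 0.0253) without libraries 19 and 20. The call was lost without library 4, 7, 10, 12, 14, 15, 18, 20, 21, 22 or 23 (adjusted p up to 0.108). An antisense gene, Il1bos, overlaps Il1b, and the strand setting of the counting is not given in the sources used here, so reads of both cannot be told apart. Tlr4, below the level rule, averaged 0.244 ± 0.0988 RPKM in chow controls (SD, n = 5), 0.341 ± 0.0544 on chow with GCGR antibody, 0.251 ± 0.0521 in HFD controls and 0.329 ± 0.120 on HFD with GCGR antibody (n = 6 each).

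Of the 3 monocyte recruitment genes only Ccr2 was tested. Ccr2, the receptor by which monocytes follow CCL2 out of the bone marrow and into tissue, read 0.241, 0.112, 0.252, 0.194 and 0.204 RPKM in chow controls. It ran from 0.159 through 0.286 to 0.373 RPKM on chow with GCGR antibody, from 0.135 through 0.327 to 0.593 in HFD controls and from 0.209 through 0.691 to 1.36 on HFD with GCGR antibody. Libraries 20 and 19 were the highest, and library 23 lay among the chow libraries. HFD changed it by 0.40 ± 0.11 (adjusted p = 0.00970) under GCGR antibody, 0.24 (adjusted p = 0.0791) without libraries 19 and 20, and 0.15 ± 0.12 (adjusted p = 0.345) under control antibody. Ccr2 was tested only through HFD libraries, and at such levels the fold change on the log2(RPKM + 1) scale understates the change.

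Cx3cr1, the fractalkine receptor of patrolling monocytes, averaged 0.164 ± 0.0910 RPKM in chow controls (SD, n = 5), 0.201 ± 0.0927 on chow with GCGR antibody, 0.281 ± 0.187 in HFD controls and 0.649 ± 0.356 on HFD with GCGR antibody (n = 6 each). With no filter on low values, which leaves 19057 genes, its diet effect under GCGR antibody was 0.43 ± 0.11 (adjusted p = 0.00946). Cx3cr1 reached 0.5 RPKM in 0 chow libraries, and libraries 19 and 20 were its highest on HFD. Its value without these libraries is not given here. Itgam, the CD11b integrin chain of monocytes and neutrophils, averaged 0.156 to 0.284 RPKM over the groups and passed in no comparison without the filter.

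Of the 5 lipid-associated genes, Trem2, Gpnmb and Lgals3 were higher and Cd9 was lower on HFD under GCGR antibody, but Trem2 and Gpnmb were tested only through HFD libraries. Trem2, a lipid receptor that signals through the adaptor encoded by Tyrobp, read 0.0991, 0.0617, 0.131, 0.278 and 0.331 RPKM in chow controls. On chow with GCGR antibody it was listed at 0 in library 8 and ran through a median of 0.151 to 0.388 RPKM. It ran from 0.180 through 0.791 to 2.03 RPKM in HFD controls and from 0.362 through 1.33 to 2.36 on HFD with GCGR antibody. Libraries 20, 17 and 19 were the highest of all, and only library 23 of the HFD GCGR antibody group lay within the chow range. Between diets the change was 0.92 ± 0.20 (adjusted p = 0.00174) under GCGR antibody and 0.68 (adjusted p = 0.0178) without libraries 19 and 20. Under control antibody it was 0.59 ± 0.21 (adjusted p = 0.0383), a call lost without library 1, 2, 3, 4, 12, 14 or 17 (adjusted p from 0.0545 to 0.101).

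Gpnmb, a membrane glycoprotein of lipid-laden macrophages, read 0.0569, 0.0354, 0.0188, 0.0957 and 0.0317 RPKM in chow controls. On chow with GCGR antibody it was listed at 0 in library 7 and ran through 0.0412 to 0.104 RPKM. It ran from 0.0863 through 0.239 to 2.31 RPKM in HFD controls and from 0.121 through 0.933 to 1.89 on HFD with GCGR antibody. Library 17 held the highest value, followed by 20 and 19, and the GCGR antibody groups did not overlap. The diet effect was 0.83 ± 0.23 (adjusted p = 0.00909) under GCGR antibody, 0.55 (adjusted p = 0.0817) without libraries 19 and 20, and 0.51 ± 0.24 (adjusted p = 0.114) under control antibody.

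Lgals3, the galactose-binding lectin galectin-3, read 1.92, 1.51, 1.35, 2.37 and 2.05 RPKM in chow controls. It ran from 1.63 through 2.04 to 2.44 RPKM on chow with GCGR antibody, from 1.87 through 2.63 to 7.47 in HFD controls and from 2.48 through 3.89 to 7.87 on HFD with GCGR antibody. Libraries 20, 14 and 19 were the highest, and the lowest HFD GCGR antibody library stood just above the highest chow GCGR antibody library. On HFD the change was 0.87 ± 0.23 (adjusted p = 0.00701) under GCGR antibody, 0.54 (adjusted p = 0.0683) without libraries 19 and 20, and 0.63 ± 0.24 (adjusted p = 0.0511) under control antibody.

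Cd9, a tetraspanin that hepatocytes and other liver cells also carry, moved the other way. It read 11.02, 10.4, 13.3, 12.05 and 10.9 RPKM in chow controls. It ran from 11.5 through 12.1 to 14.8 RPKM on chow with GCGR antibody, from 4.87 through 5.89 to 12.2 in HFD controls and from 2.65 through 4.91 to 7.70 on HFD with GCGR antibody. The GCGR antibody groups did not overlap, and only HFD controls 14 and 17 reached chow levels. HFD changed it by -1.18 ± 0.20 (adjusted p = 1.47e-04) under GCGR antibody and -1.45 (adjusted p = 2.2e-05) without libraries 19 and 20. Under control antibody it was -0.64 ± 0.21 (adjusted p = 0.0251), a call lost without library 3, 4, 12, 15 or 16 (adjusted p from 0.0503 to 0.0615). The antibody effect on HFD was -0.42 ± 0.20 (adjusted p = 0.198), and -0.69 (adjusted p = 0.0263) without libraries 19 and 20.

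Spp1, the matrix protein osteopontin, which bile duct cells make in quantity, averaged 11.3 ± 2.5 RPKM in chow controls (SD, n = 5), 26.4 ± 10.8 on chow with GCGR antibody, 14.4 ± 7.65 in HFD controls and 22.2 ± 11.8 on HFD with GCGR antibody (n = 6 each). Its antibody effect on chow, 1.08 ± 0.34, had an unadjusted p of 0.00456 and an adjusted p of 0.199. The diet effect on Spp1 was below 0 under GCGR antibody and above 0 under control antibody, and was called in neither. The 4 other bile duct cell markers summed to 2.45 to 2.92 RPKM in chow controls, 2.62 to 4.81 on chow with GCGR antibody, 1.78 to 3.35 in HFD controls and 1.92 to 2.90 on HFD with GCGR antibody.

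**Figure D4:**
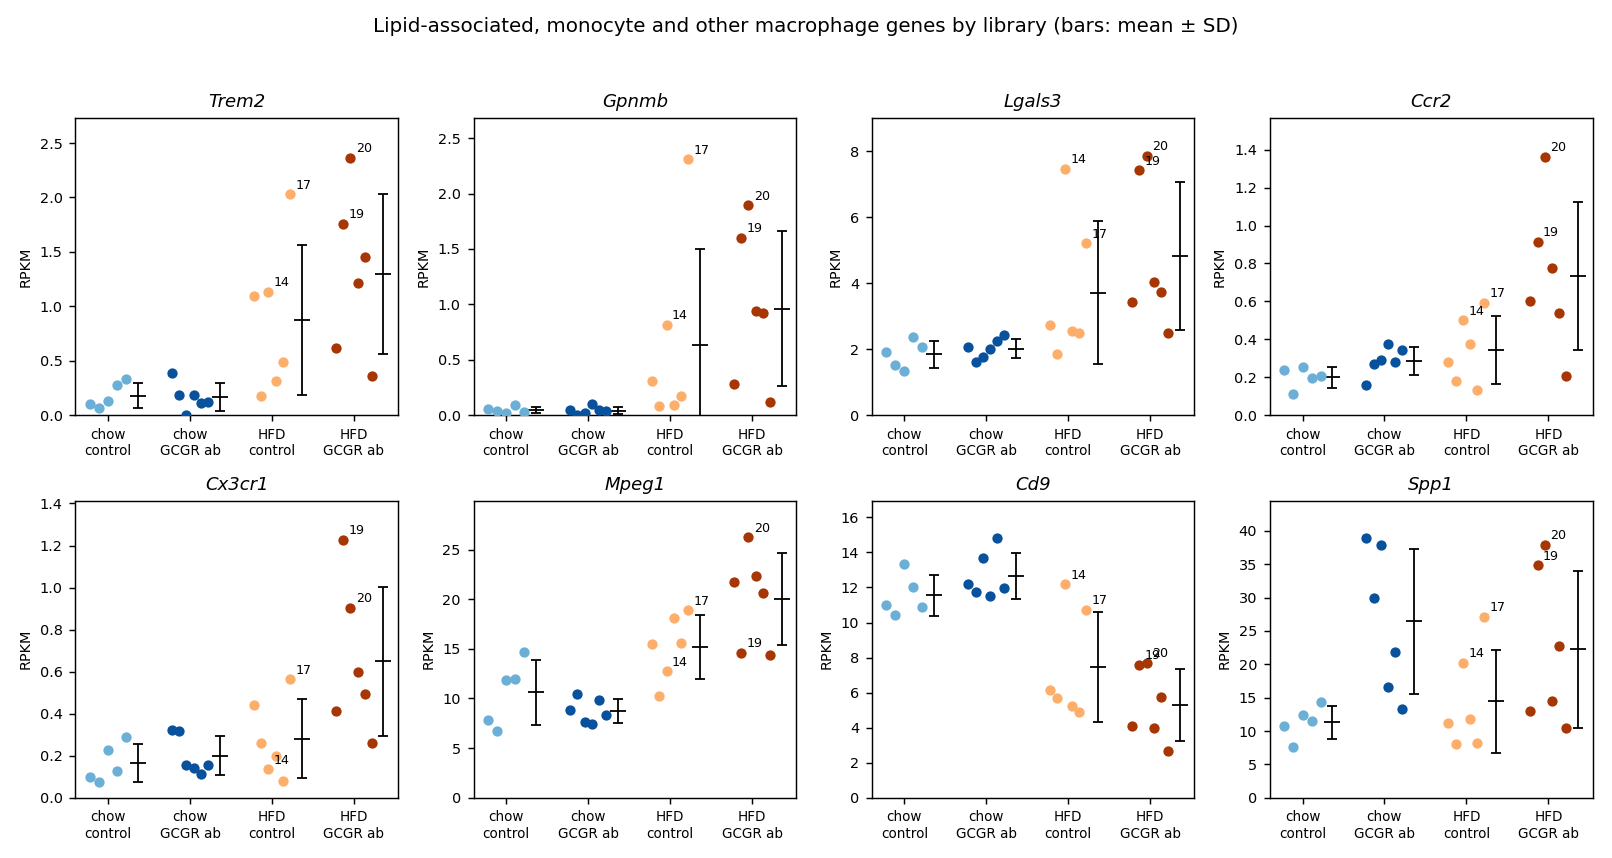
RPKM of lipid-associated, monocyte and 1 general macrophage gene in each library (dots) of the 4 groups, with the group mean and SD as bars and libraries 14, 17, 19 and 20 numbered. Trem2, Gpnmb, Lgals3 and Ccr2 are spread widely within the HFD groups, and Cd9 is lower there except in libraries 14 and 17.

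Variation between libraries of a group was wider on HFD. The median coefficient of variation over the 33 genes was 30.4% on HFD with GCGR antibody and 29.1% in HFD controls, against 21.4% in chow controls and 15.3% on chow with GCGR antibody. Relative to its own group, library 19 was lower in all 7 resident Kupffer genes, by a median of -0.66 on the log2(RPKM + 1) scale, and higher in all 5 lipid-associated genes, by 0.52. Library 20 was higher in all 5 lipid-associated genes (0.64) and near its group in the resident genes (0.07). In the HFD controls, libraries 17 and 14 were higher in all 5 lipid-associated genes (0.77 and 0.59), library 17 was also higher in 6 of the 7 resident genes, and library 14 was lower in all 7. The summed level of the 33 genes ran from 203 to 340 RPKM in chow controls, 333 to 422 on chow with GCGR antibody, 221 to 413 in HFD controls and 228 to 405 on HFD with GCGR antibody.

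**Figure D5:**
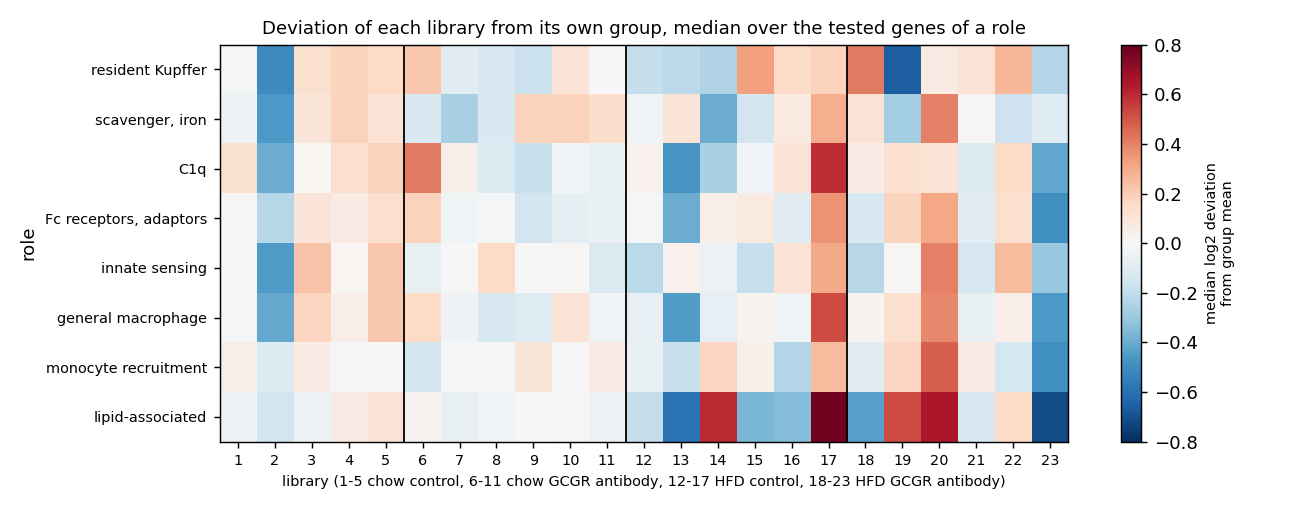
Median deviation of each library from the mean of its own group, on the log2(RPKM + 1) scale, over the tested genes of each role (rows) for libraries 1 to 23 (columns), with lines between the groups. Library 2 is low and library 17 high in nearly every role, while library 19 is low in resident Kupffer genes (-0.66) and high in lipid-associated genes (0.52).

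Other genes that shape or mark Kupffer cells were called in both directions. The counts of this and the following lists stand against 16.6% of all tested genes lower and 13.2% higher on HFD under GCGR antibody, and 18.3% and 11.6% under control antibody. Of 23 such genes, all tested, 10 were lower and 4 higher on HFD under GCGR antibody (7 and 3 without libraries 19 and 20), and the median log2 fold change was 0.06. The 3 with the smallest adjusted p were Fcna, a ficolin (-1.06 ± 0.15, adjusted p = 2.04e-05), Nr1h3, the oxysterol receptor LXR alpha that hepatocytes also express (0.25 ± 0.05, adjusted p = 0.00111), and Id3, a regulator of Kupffer cell identity (-1.22 ± 0.27, adjusted p = 0.00182). Id3 was highest in library 2 of the chow controls (37.5 RPKM) and in library 23 on HFD with GCGR antibody (28.4 RPKM). These libraries were the lowest of their groups in 30 and 24 of the 33 genes. Whether Id3 reads came from Kupffer cells was not tested. Fcna averaged 20.8 ± 1.84 RPKM in chow controls (SD, n = 5), 24.2 ± 2.88 on chow with GCGR antibody, 17.5 ± 2.53 in HFD controls and 11.5 ± 3.70 on HFD with GCGR antibody (n = 6 each). Under control antibody 2 of the 23 were higher and 2 lower, led by Nr1h3 (0.24 ± 0.05), Cd207, the lectin langerin (-0.87 ± 0.22), and C6, a complement component that hepatocytes also make (-1.07 ± 0.29). With GCGR antibody on HFD, Fcna was lower (-0.61 ± 0.15, adjusted p = 0.0137) and Cd74, the invariant chain of antigen presentation, was higher (0.79 ± 0.21, adjusted p = 0.0257). Fcna stood at -0.34 (adjusted p = 0.0536) without libraries 19 and 20 and Cd74 at 0.52 (adjusted p = 0.114), and the latter also lost its call without library 12, 13, 14, 16, 20 or 21 (adjusted p up to 0.0666).

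Of 22 tested genes out of 23 linked to lipid-associated macrophages, 12 were higher and 2 lower on HFD under GCGR antibody, with a median log2 fold change of 0.35, and 6 were higher and 2 lower without libraries 19 and 20. Mmp12, 1 of the higher genes, was tested only through HFD libraries. Many of the 22 are expressed by hepatocytes too. Atp6v0d2, a subunit of the proton pump of lysosomes, averaged 0.827 ± 0.346 RPKM in chow controls (SD, n = 5), 0.407 ± 0.166 on chow with GCGR antibody, 1.29 ± 0.495 in HFD controls and 2.51 ± 0.573 on HFD with GCGR antibody (n = 6 each). Its antibody effect on HFD was 0.63 ± 0.14 (adjusted p = 0.00564), and the difference between diets was 1.001 ± 0.20 (adjusted p = 0.0381), a call lost in 14 of 23 cases with 1 library left out (adjusted p up to 0.0889).

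The largest decrease in that list on HFD under GCGR antibody was that of Fabp5, a fatty acid carrier (-2.45 ± 0.32, adjusted p = 7.43e-06). Fabp5 also rose with the antibody on chow (1.52 ± 0.33, adjusted p = 0.0226), where Ctsl, cathepsin L, fell (-0.44 ± 0.10, adjusted p = 0.0255), and each of these calls was lost in 6 of 23 cases with 1 library left out. Under control antibody 8 of the 22 were higher on HFD and 2 lower, among them Lgals1, galectin-1 (2.41 ± 0.41, adjusted p = 2.04e-04), and Fabp4, a fatty acid carrier of adipocytes and macrophages (1.47 ± 0.29, adjusted p = 9.58e-04).

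Of 9 tested genes out of 18 of monocytes and dendritic cells, 5 were higher and 1 lower on HFD under GCGR antibody, but 1 and 1 without libraries 19 and 20. The smallest adjusted p were those of Ms4a7 (0.55 ± 0.15, adjusted p = 0.00771), which was tested only through HFD libraries, Fn1, fibronectin, which hepatocytes also make (0.40 ± 0.12, adjusted p = 0.0118), and Plac8 (0.52 ± 0.16, adjusted p = 0.0160). Without libraries 19 and 20, Ms4a7 stood at 0.35 (adjusted p = 0.0700) and Plac8 at 0.28 (adjusted p = 0.147). Under control antibody 1 of the 9 was called, Plac8 (0.49 ± 0.16, adjusted p = 0.0283), a call lost without library 1, 2, 4, 12 or 17 (adjusted p up to 0.0628). Of 7 tested chemokine and receptor genes out of 14, Ccl9 was lower on HFD under GCGR antibody (-1.19 ± 0.17, adjusted p = 3.34e-05) and under control antibody (-1.35 ± 0.18, adjusted p = 1.93e-05). Ccl2, the ligand of Ccr2, was higher under GCGR antibody (0.68 ± 0.20, adjusted p = 0.0146), but 0.41 (adjusted p = 0.0969) without libraries 19 and 20.

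Of 15 tested innate sensing genes out of 24, 3 were higher on HFD under GCGR antibody and 0 lower. They were Il1rn, the interleukin-1 receptor antagonist (0.79 ± 0.15, adjusted p = 6.35e-04), Tlr1, tested only through HFD libraries (0.30 ± 0.07, adjusted p = 0.00431), and Clec7a, the beta-glucan receptor dectin-1 (0.70 ± 0.20, adjusted p = 0.0115). Clec7a stood at 0.44 (adjusted p = 0.0904) without libraries 19 and 20. Il1rn was also higher under control antibody (0.64 ± 0.16, adjusted p = 0.00538). With GCGR antibody on HFD, Tlr2, a sensor of bacterial lipoproteins, rose from 0.557 ± 0.225 to 1.27 ± 0.418 RPKM (SD, n = 6 each), a log2 fold change of 0.54 ± 0.11 (adjusted p = 0.00493), and its partner Tlr1 changed by 0.28 ± 0.07 (adjusted p = 0.0233), but with an adjusted p of 0.0849 without libraries 19 and 20 and up to 0.0647 without library 14 or 22.

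Of 21 tested genes out of 22 of Fc signalling and phagocytosis, 3 were higher and 2 lower on HFD under GCGR antibody, near or below the shares over all tested genes. Cd36, a fatty acid and lipoprotein receptor that hepatocytes also express, changed by 1.86 ± 0.27 (adjusted p = 3.36e-05), Gas6, a ligand that bridges dying cells to phagocytes, by 0.80 ± 0.20 (adjusted p = 0.00437), and Cyba, a subunit of the phagocyte oxidase, by 0.52 ± 0.15 (adjusted p = 0.0135). Cyba stood at 0.41 (adjusted p = 0.0811) without libraries 19 and 20, and without library 23 alone 0 genes of the list were lower. Under control antibody Cd36 (1.89 ± 0.29, adjusted p = 6.54e-05) and Gas6 (1.12 ± 0.21, adjusted p = 5.28e-04) were higher and Lyn, a kinase of Fc and other immune receptors, was lower (-0.24 ± 0.08, adjusted p = 0.0266), which was lost without library 3, 4, 5, 14 or 15 (adjusted p up to 0.0747). Of 5 tested genes of colony-stimulating factors and their receptors (Csf1, Il34, Csf2ra, Csf2rb and Csf3r), limma called 0 in every comparison (1 under control antibody, Il34, without libraries 19 and 20), and 1 had an unadjusted p under 0.05 in each of 3 of the 5 comparisons.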

How the data were processed

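Liver RNA of 23 mouse samples was sequenced in strand-specific libraries with single reads of 33 cycles, per the labels' protocols. The authors deposited 1 table of RPKM with a gene ID and symbol per gene and 1 column per library. Reads were handled with bcl2fastq 2.17 and FastQC on build GRCm38, per the submitters' processing notes. An aligner or counting tool is not given in the sources used here. No read totals are in the table, so depth is unknown and no counting intervals were computed. The summed RPKM of a library ran from 594026 to 692295.

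Each column was tied to its sample by name, with groups read from the titles. Genes with at least 0.5 RPKM in at least 5 libraries entered a limma fit (version 3.58.1, R 4.3.3) on log2(RPKM + 1), with 4 group means over all 23 libraries, a mean-variance trend and Benjamini-Hochberg adjustment over 11939 genes. Adjusted p, two-sided, are limma's throughout, and genes under 0.05 are called. Fold changes are on that log2 scale ± SE with 19 residual degrees of freedom. The fit was tested on simulated data. The exact rank-sum test was run per gene and adjusted over the same genes. Promoters and gene positions come from RefSeq on GRCm38.p6.

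The 36 genes, their roles and the other lists were chosen with earlier results of these data known. Values by library are given for each called gene and for Adgre1, Clec4f, Timd4, Cd5l, C1qa, Csf1r, Ccr2, Trem2 and Gpnmb. Of each other list, up to 3 called genes with the smallest adjusted p are named per comparison, except 1 gene that is not reported here. Alternatives were other pseudocounts, filters, scalings, tests and weights, and leaving out libraries. Leaving out libraries 2, 17, 19, 20 and 23 for the other lists was chosen after seeing the data.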

Additional observations from a re-analysis of the deposited data

Results flagged for a closer look

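Over 144 sets of 1 gene and 1 group, 7 had a highest or lowest library far from the others of its group by Dixon's criterion, where chance gives about 1 in 20, or 7.2. On chow with GCGR antibody, library 6 was highest in Clec4f (43.1 RPKM, next 32.8), C1qc (32.9, next 25.4) and Tyrobp (19.96, next 13.5). In HFD controls, library 17 was highest in Csf1r (11.1 RPKM, next 7.37), Fcgr3 (5.60, next 3.34) and Gpnmb (2.31, next 0.816). On HFD with GCGR antibody, library 23 was lowest in C1qa (18.7 RPKM, next 25.7).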

How the results depend on the processing

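No called fold change reversed its direction under any alternative. Under GCGR antibody, Cd163, Cd9, Mpeg1 and Trem2 kept their diet calls in all 34 alternatives, but Trem2 was tested only through HFD libraries. The call of Trem2 therefore does not support a direction. For diet under GCGR antibody the 8 lower genes became 4 by the exact rank-sum test and 4 without libraries 19 and 20. The 5 higher genes became 3 with a filter of 1 RPKM, under which Gpnmb and Ccr2 were not tested, and 2 without libraries 19 and 20. Leaving out 1 library gave 5 to 9 lower and 5 to 8 higher. For the antibody on HFD the 4 higher genes became 0 with no filter, 0 in a fit on the 2 groups alone, 0 by the rank-sum test, 1 under median-ratio scaling, 1 under quantile normalization and 1 without libraries 19 and 20, where 1 gene was lower. Leaving out 1 library gave 0 to 7 higher. For diet under control antibody the 2 higher genes became 4 with a pseudocount of 0.1 RPKM, 0 with no filter, 5 under median-ratio scaling, 4 under quantile normalization, 0 by the rank-sum test, 5 with array weights and 5 without libraries 19 and 20. The 1 lower gene became 2 with a pseudocount of 0.1 or 0.5 RPKM, 2 under quantile normalization, 0 by the rank-sum test, 6 with array weights and 3 without libraries 19 and 20. Leaving out 1 library gave 0 to 5 higher and 0 to 7 lower. Dropping the filter raises the number of genes tested to 19057. The cause of the other shifts was not tested. The antibody effect on chow and the difference between diets stayed at 0 calls throughout. Scalings moved the median of all genes by less than 0.05 on the log2 scale. Read depth is not given, and levels below 0.5 RPKM are the least certain.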
